A study of Homo sapiens with 6 samples.

Results

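10 genes that encode or control the CNC-bZIP transcription factors were followed in MDA-MB-231, a widely used human cell line derived from a triple-negative breast carcinoma. They were the activators *NFE2L1*, *NFE2L2* and *NFE2L3*, the repressor *BACH1*, the small MAF partners *MAFF*, *MAFG* and *MAFK*, and the regulators *KEAP1*, *DDI2* and *NGLY1*. Members were taken by gene symbol from the deposited table of 58825 genes, where each of the 10 had 1 row, and all 10 passed the filter on low counts. RNA had been sequenced from 3 repeats treated with disulfiram and copper (DSF/Cu) at 0.2 µM, a concentration the labels give for the combination, and from 3 repeats treated with the vehicle DMSO. Both groups were harvested after 24 h, and cells of 3 wells were combined into each repeat. The effects of disulfiram and of copper cannot be told apart, because neither was given by itself. The labels do not say that repeats came from separately grown cultures, so p-values reflect the spread among these 6 samples only, and that spread may be technical.

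CNC-bZIP proteins bind antioxidant response elements in DNA as partners of a small MAF protein, which has a DNA-binding region but no activating domain of its own. NRF2, the product of *NFE2L2*, is held at a low level by KEAP1, which hands it to a CUL3 ubiquitin ligase. NRF2 escapes this control when cysteines of KEAP1 are modified by electrophiles or metals. The product of *NFE2L1* sits in the endoplasmic reticulum membrane, is pulled out by p97, stripped of sugars by NGLY1 and cut by the protease DDI2, and then raises proteasome genes when proteasome capacity is short. BACH1 occupies the same elements as a repressor until haem binds it, and *HMOX1* is its best known target.

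By the table's coordinates, which are used here as GRCh38, *NFE2L1* lies at chr17:48048329-48061487 on the plus strand and *MAFG* at chr17:81918270-81927735 on the minus strand. *NFE2L3* (chr7:26152198-26187137) and *MAFK* (chr7:1530702-1543043) are both on the plus strand of chromosome 7. *NFE2L2* spans chr2:177227595-177287777 on the minus strand, *BACH1* spans chr21:29194071-29630751 on the plus strand and *MAFF* spans chr22:38200767-38216507 on the plus strand. *KEAP1* is at chr19:10486125-10503356 and *NGLY1* at chr3:25718944-25790039, both on the minus strand, and *DDI2* is at chr1:15617458-15669044 on the plus strand. All 10 are protein-coding genes in GENCODE 29.

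RefSeq promoter windows (GRCh38.p14), from 250 bases before to 50 after a transcription start, were held for 9 of the 10 genes, in 16 windows. Both strands were searched for TGACNNNGC (the core of an antioxidant response element), TGAGTCA (the core shared by AP-1 and NF-E2 sites), TTCNNGAA (a pair of heat shock element units) and TGATGCAA (a C/EBP-ATF response element). The first was found in 2 of the 16 windows, in *MAFF* and *KEAP1*, against 13.3% of all 35116 windows in the table. TGAGTCA was found in 1 window, of *BACH1* (4.95% of all windows), TTCNNGAA in 1, of *MAFG* (7.74%), and TGATGCAA in 0 (0.866%). All matches found are shown, and the windows of *NFE2L1*, *NFE2L2*, *NFE2L3*, *DDI2* and *NGLY1* held none. Each is printed 5′ to 3′ on the strand of its gene, in a stretch of 30 bases with the match in capitals. Each distance is to the transcription start of the window that held the match. For *MAFF*, *KEAP1* and *BACH1* that start lies inside the gene span given above, and other windows of these genes held no match. A match in letters is no evidence of binding.
*MAFF*, match 122 bases before the start, reverse strand, chr22:38201862-38201891: cttccaggggGCGGGGTCAtacgggggcgg
*KEAP1*, match 54 bases before the start, chr19:10502806-10502835: acttttattgTGACACGGCgggcgcccggc
*KEAP1*, match 31 bases before the start, reverse strand, chr19:10502783-10502812: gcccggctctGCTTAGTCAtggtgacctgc
*BACH1*, match 48 bases before the start, chr21:29298863-29298892: cgcggaaggagTGAGTCAcctgaccgctgc
*MAFG*, match 31 bases before the start, chr17:81927748-81927777: cgcgtcgccgcTTCATGAAtggagcccacg
The stretches of *MAFF*, *KEAP1* and *BACH1* overlap an exon of another GENCODE 29 transcript of the same gene, while that of *MAFG* overlaps no exon.

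Total counts were 55563223 to 61633168 per library after DSF/Cu and 62165212 to 70883177 in DMSO. A gene was called where edgeR's quasi-likelihood test gave an adjusted p (Benjamini-Hochberg, over the 18229 genes tested) below 0.05, which held for 35.2% of genes, 18.5% higher and 16.8% lower after DSF/Cu. Levels are TMM-scaled CPM, the reads of a gene per 1e6 reads of a library, and changes are relative to that scaling, under which the median log2 change of all genes was 0.0023. Scaling by total counts put this median at -0.182, raised 12.9% and lowered 26.6%; rises then made up 32.7% of all calls, against 52.4% with TMM. No library stood apart as a whole: among 9608 genes with a mean of at least 10 CPM, each library exceeded both others of its group by more than 1.5 times in 78 to 117 genes and fell below both by as much in 144 to 181. The line's markers were present, with *VIM* at 2734 CPM after DSF/Cu and 3297 CPM in DMSO. Of 6 such markers *ZEB1* rose after DSF/Cu, and *VIM* and *AXL* fell. Among 7 markers of luminal or epithelial cells, *CDH1*, the epithelial cadherin, had 4 counts over the DSF/Cu libraries and 4 over the DMSO libraries. *ERBB2* stood at 39.7 CPM after DSF/Cu and 69.4 CPM in DMSO, *EPCAM* at 4.49 and 7.30 CPM, and both fell. The calls of *VIM*, *ZEB1* and *EPCAM* were lost when some libraries were left out. That of *ZEB1* was also lost under total-count scaling (edgeR adjusted p = 0.0565) and in limma on FPKM (limma adjusted p = 0.0581 and 0.0561 with pseudocounts of 1 and 0.1). Of 10 markers of immune, endothelial, fibroblast and adipose cells, 5 had no count in any library, among them *DCN*. The immune marker *PTPRC* had 12, 0 and 2 counts after DSF/Cu and 0 in each DMSO library. The collagen gene *COL3A1* had 4, 0 and 4 counts after DSF/Cu and 0, 8 and 0 in DMSO. The endothelial marker *PECAM1* stood at 0.76 CPM after DSF/Cu and 0.37 CPM in DMSO and was not called. The macrophage marker *CD68* stood at 142 CPM after DSF/Cu and 149 CPM in DMSO and was not called. The collagen gene *COL1A1* rose to 6.07 CPM after DSF/Cu, against 2.26 CPM in DMSO. These markers were named after their values were seen, and the part of such cells in the results was not tested. Fewer cells and less RNA per cell cannot be told apart in these bulk samples.

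After DSF/Cu, 4 of the 10 genes rose, *NFE2L2*, *BACH1*, *MAFF* and *MAFG*, and 1 fell, *NFE2L3*. Rises were thus 4 of 10 where 18.5% of all tested genes rose, falls were 1 of 10 where 16.8% fell, and calls in either direction were 5 of 10 where 35.2% of genes were called. The other 5, *NFE2L1*, *MAFK*, *KEAP1*, *DDI2* and *NGLY1*, did not pass the test. The DSF/Cu and DMSO libraries did not overlap for 5 of the 10, the same 5 that were called, while the groups did not overlap for 51.2% of all genes tested.

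**Figure D1:**
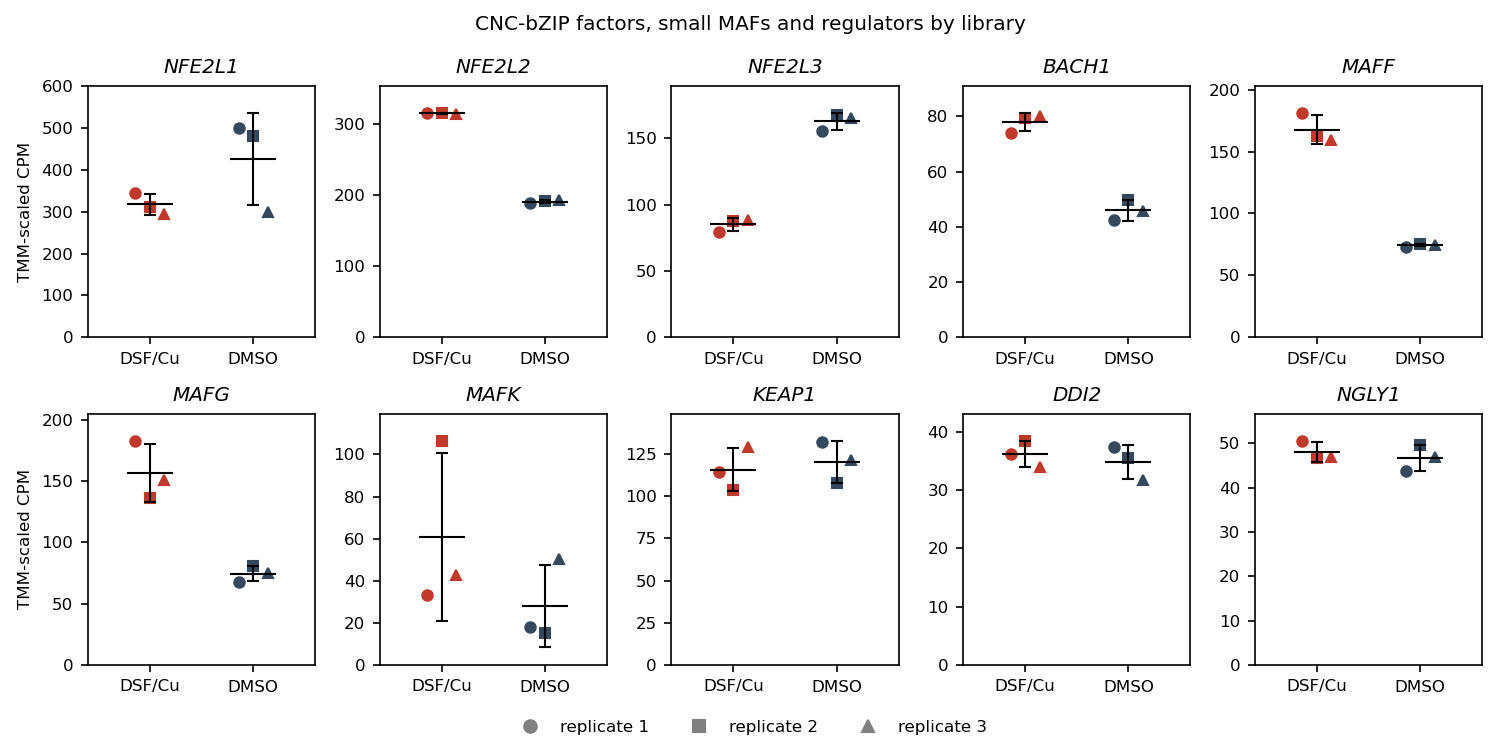
Level of each gene in each library (y axis, TMM-scaled CPM, starting at 0), with DSF/Cu left of DMSO, 3 libraries per group and the mean ± SD as bars. *NFE2L2*, *BACH1*, *MAFF* and *MAFG* lie higher in every DSF/Cu library and *NFE2L3* lower, while *MAFK* ranges from 33.0 to 106.5 CPM after DSF/Cu and from 15.1 to 50.2 CPM in DMSO.

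Among the activators, *NFE2L2* held 316.2, 316.1 and 315.4 CPM in the DSF/Cu libraries, against 189, 192 and 193 CPM in the DMSO libraries. All DSF/Cu values lay far above all DMSO values, and the libraries within a group were almost equal. The log2 change was 0.72 ± 0.04 (SE, n = 3 per group; edgeR adjusted p = 0.0001004), a rise of 1.65-fold. The within-group SD of its log2 CPM was 0.0104, and of the 9608 well-counted genes 2 had a smaller one, against a median of 0.11.

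*NFE2L3*, a membrane-tethered relative of *NFE2L1*, held 79.7, 87.6 and 88.5 CPM after DSF/Cu, against 156, 168 and 165 CPM in DMSO. It was lower in all 3 DSF/Cu libraries than in any DMSO library. The log2 change was -0.93 ± 0.06 (SE, n = 3 per group; edgeR adjusted p = 1.83e-04), so that the DMSO level was 1.91 times the DSF/Cu level.

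*NFE2L1* held 345, 312 and 295 CPM after DSF/Cu, against 499, 480.1 and 300.5 CPM in DMSO. DMSO libraries 1 and 2 were higher than every DSF/Cu library, and DMSO library 3 lay within the DSF/Cu range. The log2 change was -0.43 (95% interval -0.88 to 0.03) and was not called (edgeR adjusted p = 0.132). Without DMSO replicate 3 it was -0.63 and called (edgeR adjusted p = 0.00448), and it was called at -0.61 under total-count scaling (edgeR adjusted p = 0.04). Over all alternatives its adjusted p ran from 0.00448 to 0.325.

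The repressor *BACH1* held 74.1, 79.4 and 80.3 CPM after DSF/Cu, against 42.4, 49.9 and 45.6 CPM in DMSO. Every DSF/Cu library was above every DMSO library. The log2 change was 0.76 ± 0.08 (SE, n = 3 per group; edgeR adjusted p = 7.64e-04), a rise of 1.70-fold, close in size to that of *NFE2L2*.

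The small MAF genes encode the shared partners of all these factors. *MAFF* held 181, 163 and 159 CPM after DSF/Cu, against 73.3, 75.1 and 74.7 CPM in DMSO, and *MAFG* held 183, 137 and 151 CPM after DSF/Cu, against 68.0, 80.5 and 75.1 CPM in DMSO. For both genes the groups were well apart, and the spread in *MAFG* was mostly among the DSF/Cu libraries. *MAFF* rose by 1.17 ± 0.07 (log2, SE, n = 3 per group; edgeR adjusted p = 9.69e-05), or 2.26-fold. *MAFG* rose by 1.07 ± 0.12 (log2, SE, n = 3 per group; edgeR adjusted p = 0.00106), or 2.11-fold.

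*MAFK*, the third small MAF, was the least reproducible of the 10. It held 33.0, 106.5 and 42.6 CPM after DSF/Cu, against 18.2, 15.1 and 50.2 CPM in DMSO. DSF/Cu library 2 and DMSO library 3 were each over 2 times as high as the other libraries of their group, and DMSO library 3 was above 2 of the 3 DSF/Cu libraries. The highest library was 3.22 times the lowest after DSF/Cu and 3.33 times in DMSO. The fitted log2 change of 1.13 lay between those of *MAFF* and *MAFG*, but its 95% interval ran from -0.33 to 2.58 and it was not called (edgeR adjusted p = 0.204). It was 0.44 without DSF/Cu replicate 2 (edgeR adjusted p = 0.596) and 1.86 without DMSO replicate 3 (edgeR adjusted p = 0.0556). Its within-group SD of 0.90 on the log2 scale exceeded that of 98.5% of well-counted genes. *TMEM184A*, a gene on the opposite strand that shares 18.2% of the exon bases of *MAFK*, had 99 to 138 counts after DSF/Cu and 101 to 221 in DMSO, against 1010 to 6151 counts of *MAFK*. The part of shared reads in the spread of *MAFK* was not tested.

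The regulators did not pass the test. *KEAP1* held 115, 104 and 129 CPM after DSF/Cu, against 132, 108 and 122 CPM in DMSO, and the groups overlapped throughout (log2 change -0.06, 95% interval -0.32 to 0.20; edgeR adjusted p = 0.713). *DDI2* held 36.3, 38.5 and 34.0 CPM after DSF/Cu, against 37.3, 35.5 and 31.7 CPM in DMSO (log2 change 0.06, 95% interval -0.16 to 0.27; edgeR adjusted p = 0.674). *NGLY1* held 50.6, 46.6 and 47.0 CPM after DSF/Cu, against 43.7, 49.5 and 46.9 CPM in DMSO (log2 change 0.04, 95% interval -0.14 to 0.22; edgeR adjusted p = 0.71). These intervals leave out changes as large as the rise of *NFE2L2*. The sign of these small changes is not settled, since *DDI2* and *NGLY1* lay at -0.13 and -0.145 under total-count scaling.

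**Figure D2:**
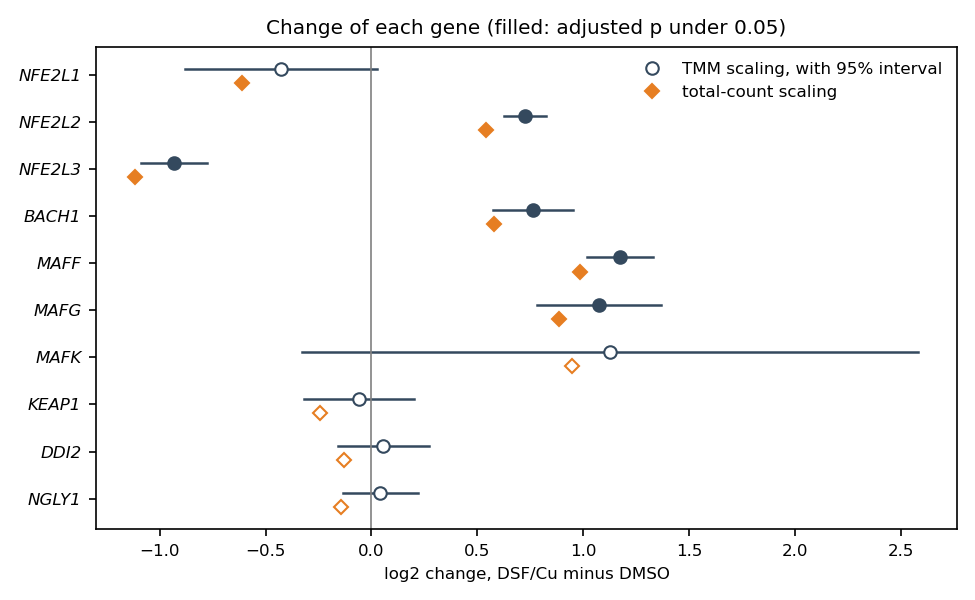
Log2 change of each gene, DSF/Cu minus DMSO (x axis), under TMM scaling with its 95% interval (circles) and under total-count scaling (diamonds), filled where the adjusted p was under 0.05. The 4 rises and the fall of *NFE2L3* are called under both scalings, and *NFE2L1* is called under total-count scaling but not under TMM.

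The counts may hold reads of overlapping genes, since the strand setting of the counting is not given in the sources used here. *NFE2L3*, *MAFF* and *KEAP1* share no exon base with another gene of GENCODE 29. *NFE2L2* shares 20.9% of its exon bases, mostly with a same-strand transcript, *AC019080.1*, that had 161 to 193 counts after DSF/Cu and 233 to 316 in DMSO, against 16678 to 18249 and 12750 to 14419 counts of *NFE2L2*. *AGPS*, on the opposite strand, shares 0.9% of the exon bases of *NFE2L2* and had 9637 to 9945 counts after DSF/Cu and 11605 to 12490 in DMSO. *DDI2* contains the nested gene *RSC1A1*, which had 16 to 37 counts after DSF/Cu and 13 to 16 in DMSO. The other shares were 3.3% in *NFE2L1*, 4.5% in *BACH1*, 6.3% in *MAFG* and 6.44% in *NGLY1*. In *MAFG*, 2.01% is shared with the same-strand gene *SIRT7*, which had 2247 to 2570 counts after DSF/Cu and 2082 to 2653 in DMSO. The part of shared reads in these counts was not tested.

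Levels of different genes were compared per length, in FPKM. After DSF/Cu the order ran from *NFE2L2* (44.6 ± 0.767, SD, n = 3) and *NFE2L1* (43.2 ± 2.68), whose ranges overlapped, through *KEAP1* (25.9 ± 3.09), *MAFG* (23.9 ± 3.24) and *MAFF* (23.9 ± 1.24), each overlapping the next, to *NFE2L3* (15.9 ± 1.18), *MAFK* (10.9 ± 7.23), *BACH1* (8.14 ± 0.493), *NGLY1* (4.64 ± 0.134) and *DDI2* (2.38 ± 0.145). Of the last 5, the ranges of *MAFK* overlapped those of both its neighbours, and the others were apart. In DMSO, *NFE2L1* led with 65.4 ± 16.9 FPKM and was apart from *NFE2L3* (34.1 ± 1.124), *KEAP1* (30.4 ± 3.34) and *NFE2L2* (30.4 ± 0.222), of which *KEAP1* overlapped both others. *MAFG* (12.8 ± 0.991) and *MAFF* (11.9 ± 0.0766) overlapped, as did *MAFK* (5.61 ± 3.92), *BACH1* (5.40 ± 0.404) and *NGLY1* (5.08 ± 0.281), and *DDI2* was again lowest at 2.58 ± 0.221. *NFE2L2* thus stood at rank 1 after DSF/Cu and rank 4 in DMSO, and *NFE2L3* at rank 6 and rank 2.

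Ratios within a library do not depend on how libraries are scaled. The 4 CNC-bZIP genes summed to 111.8 ± 0.55 FPKM after DSF/Cu and 135.3 ± 16.2 FPKM in DMSO (SD, n = 3 each). A share of this sum depends on the other genes in it as well. Of the sum, *NFE2L2* held 39.1, 40.0 and 40.7% after DSF/Cu, against 20.9, 21.0 and 26.3% in DMSO. *NFE2L3* held 13.0, 14.6 and 15.04% after DSF/Cu, against 22.6, 24.2 and 29.7% in DMSO. *NFE2L1* held 41.2, 38.0 and 36.7% after DSF/Cu, against 53.1, 50.7 and 39.5% in DMSO. *BACH1* held 6.77, 7.42 and 7.65% after DSF/Cu, against 3.45, 4.04 and 4.59% in DMSO. The groups did not overlap for *NFE2L2*, *NFE2L3* and *BACH1*, but they did for *NFE2L1*, whose share in DMSO library 3 lay below that in DSF/Cu library 1.

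Among the small MAFs the sum was 58.7 ± 4.66 FPKM after DSF/Cu and 30.4 ± 4.09 FPKM in DMSO (SD, n = 3 each), and the shares overlapped between groups. *MAFF* held 40.9 ± 3.57% of it after DSF/Cu and 39.8 ± 4.85% in DMSO, and *MAFG* held 41.0 ± 7.14% and 42.6 ± 5.51%. *MAFK* held 18.1 ± 10.7% after DSF/Cu and 17.6 ± 9.87% in DMSO, with 30.2% in DSF/Cu library 2 and 28.9% in DMSO library 3.

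**Figure D3:**
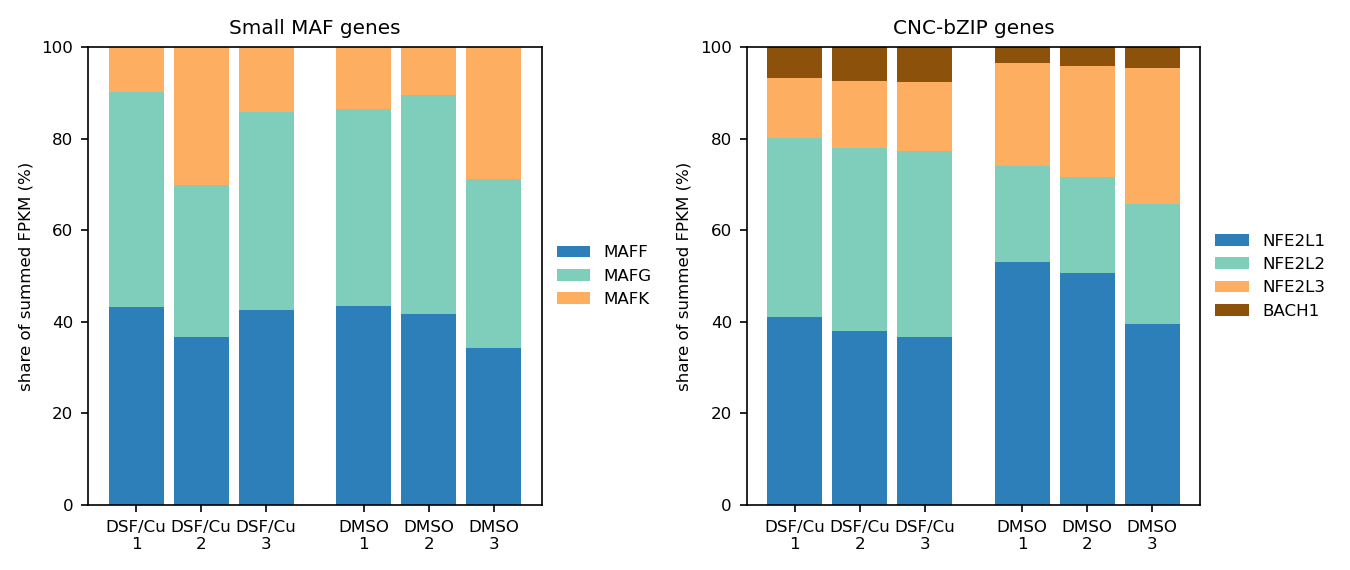
Share of the summed FPKM (y axis, %) held by each small MAF gene (left) and each CNC-bZIP gene (right) in every library, with DSF/Cu left of DMSO. *NFE2L2* takes 39.1 to 40.7% of the CNC-bZIP sum after DSF/Cu and 20.9 to 26.3% in DMSO, while the small MAF shares overlap between the groups.

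7 ratios between pairs were compared by two-sided exact permutation tests, for which the smallest p that 3 against 3 libraries allow is 0.1, so none could pass 0.05. *NFE2L2* over *KEAP1* was 1.74, 1.92 and 1.54 after DSF/Cu, against 0.90, 1.121 and 1.001 in DMSO. The groups did not overlap, and the log2 ratio was higher by 0.79 (exact p = 0.1, adjusted over 7 ratios 0.233). *NFE2L1* over *NFE2L2* was 1.05, 0.951 and 0.901 after DSF/Cu, against 2.545, 2.42 and 1.501 in DMSO, a log2 difference of -1.118 with no overlap (exact p = 0.1, adjusted 0.233). *NFE2L3* over *NFE2L1* was 0.316, 0.384 and 0.411 after DSF/Cu, against 0.426, 0.478 and 0.752 in DMSO, a difference of -0.54 with no overlap but DSF/Cu library 3 close to DMSO library 1 (exact p = 0.1, adjusted 0.233). Without DMSO replicate 3 this difference was -0.295.

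*NFE2L2* over *BACH1*, the activator over the repressor, was 5.77, 5.39 and 5.31 after DSF/Cu, against 6.04, 5.19 and 5.72 in DMSO. The groups overlapped, and the difference in log2 ratio was -0.04 (exact p = 0.7, adjusted 0.9). *MAFF* over *MAFG* was 0.925, 1.11 and 0.985 after DSF/Cu, against 1.01, 0.872 and 0.93 in DMSO, again with overlap (difference 0.10, exact p = 0.5, adjusted 0.875). *MAFK* over *MAFG* and *DDI2* over *NGLY1* differed by 0.08 and 0.015 (exact p = 0.8 and 0.9, both adjusted to 0.9).

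**Figure D4:**
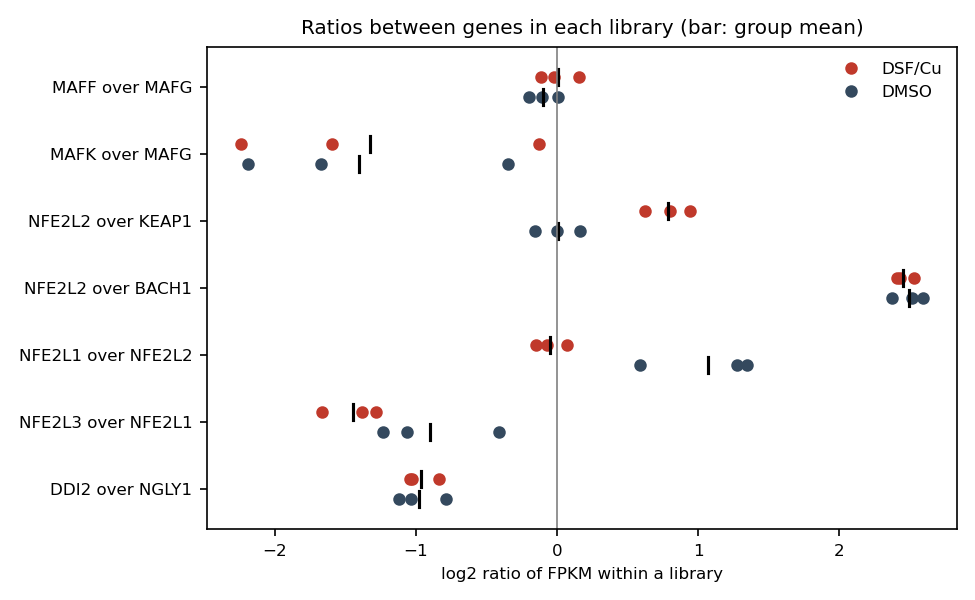
Log2 ratio of FPKM within each library (x axis) for 7 pairs of genes, with DSF/Cu above DMSO in each row and the group mean as a bar. The groups are apart for *NFE2L2* over *KEAP1*, *NFE2L1* over *NFE2L2* and *NFE2L3* over *NFE2L1*, and overlap for the other 4 pairs.

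Outside the 10 genes, relatives examined included the CNC-bZIP genes *NFE2* and *BACH2*, the large MAF genes *MAF*, *MAFA* and *NRL*, which unlike the small MAFs carry an activating domain, and *DDI1*, the relative of *DDI2*. *MAFA* had 250, 276 and 194 counts after DSF/Cu, against 28, 14 and 16 in DMSO, and rose by 3.96 ± 0.28 (log2, SE; edgeR adjusted p = 2.13e-04). *BACH2* (log2 change 0.38, edgeR adjusted p = 0.23) and *NRL* (-0.41, edgeR adjusted p = 0.575) were not called. *NFE2* had 8 counts over the DSF/Cu libraries and 8 over the DMSO libraries, and *MAF* and *DDI1* had 0 in every library.

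Of 18 tested genes that set the turnover of NRF2 and BACH1, 6 rose and 4 fell (median log2 change 0.09), where 18.5% of all genes rose and 16.8% fell. Under total-count scaling 2 rose and 5 fell (median -0.09), where 12.9% of all genes rose and 26.6% fell. When each library was left out, 2 to 3 of the turnover genes fell, beside 2284 to 2550 of all genes. *SQSTM1*, the autophagy receptor that binds KEAP1, rose to 1977 ± 68.2 CPM after DSF/Cu, against 756 ± 21.5 CPM in DMSO. *SQSTM1* is also counted among the NRF2 targets and the BACH1-repressed genes below. *CUL3*, the scaffold of the ligase that KEAP1 serves, rose by 0.35 ± 0.05 (log2, SE), and *GSK3B*, a kinase that marks NRF2 for another ligase, rose by 0.37 ± 0.06 but was not called under total-count scaling (edgeR adjusted p = 0.0757). The coactivator *EP300* rose by 0.45 ± 0.10 and was likewise not called under that scaling (edgeR adjusted p = 0.0786), nor without DMSO replicate 3 (0.0515). The mitochondrial KEAP1 partner *PGAM5* fell by 0.72 ± 0.05, the KEAP1-binding *AMER1* by 0.80 ± 0.17 and *FBXL17*, which targets BACH1 for degradation, by 0.56 ± 0.15. *FBXL17* was not called when any library other than DSF/Cu 3 was left out (edgeR adjusted p from 0.0625 to 0.087).

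Of 15 tested genes that process the NFE2L1 protein or set its turnover, 12 rose and 0 fell (median log2 change 0.31), beside 18.5% raised and 16.8% lowered of all genes. Under total-count scaling 6 rose and 0 fell (median 0.12), beside 12.9% raised and 26.6% lowered of all genes. *VCP*, which encodes p97, rose to 1057 ± 17.1 CPM after DSF/Cu, against 635 ± 15.9 CPM in DMSO, and its cofactor *UFD1* rose to 133 ± 8.46 CPM, against 66.1 ± 2.62 CPM in DMSO. The ubiquitin ligase gene *UBE4A* rose by 0.81 ± 0.05 and *FBXW7*, which targets nuclear NFE2L1 for destruction, by 1.14 ± 0.11 (log2, SE). *SYVN1*, among the 12 rises, is also counted as a rise in the turnover list. *DDI2* and *NGLY1*, the protease and the deglycosylase of the same route, are members and not part of these 15 genes, and neither was called.

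Known targets of the factors were read from 3 lists, of which the NRF2 and BACH1 lists share 13 genes and are not separate evidence. Of 39 tested NRF2 targets 25 rose and 1 fell (median log2 change 0.70), and of 15 BACH1-repressed genes 11 rose and 1 fell (median 1.02), where the median of all genes was 0.0023, 18.5% rose and 16.8% fell. The other 13 NRF2 targets were not called. Among them was *NQO1*, also on the BACH1 list, at 278 CPM after DSF/Cu and 288 CPM in DMSO (edgeR adjusted p = 0.521). *HMOX1*, the haem oxygenase on both lists, rose to 936.5 ± 102 CPM after DSF/Cu, against 22.1 ± 1.10 CPM in DMSO. *SRXN1*, which repairs oxidised peroxiredoxins, rose by 1.38 ± 0.05, the lipase gene *ABHD4* by 2.10 ± 0.07, the ferritin light chain *FTL* by 1.58 ± 0.07 and *GCLM*, a subunit of the enzyme that starts glutathione synthesis, by 1.498 ± 0.06 (log2, SE). All 11 rises of the BACH1 list were of genes shared with the NRF2 list. Of the genes on the BACH1 list alone, the iron exporter *SLC40A1* fell by 0.67 ± 0.15. The other, *ABCB6*, was not called (log2 change 0.28, edgeR adjusted p = 0.145). *ABCB6* and *NQO1* were named after their values were seen. *SLC40A1* was not called without DSF/Cu replicate 3 (edgeR adjusted p = 0.0552) or DMSO replicate 2 (0.0551). Under total-count scaling 23 NRF2 targets rose and 4 fell (median 0.51), and 9 BACH1-repressed genes rose and 2 fell (median 0.83). Of all genes, 12.9% rose and 26.6% fell under that scaling.

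Of 34 proteasome genes, known targets of NFE2L1, 30 rose and 0 fell (median log2 change 0.59), set beside 18.5% raised and 16.8% lowered of all genes. *PSMC4* rose to 393 ± 24.9 CPM after DSF/Cu, against 171 ± 1.35 CPM in DMSO, *PSMD2* rose by 0.72 ± 0.04, *PSMC2* by 0.82 ± 0.05 and *PSMB7* by 0.87 ± 0.06 (log2, SE). The *NFE2L1* message itself, at -0.43 on the same scale, did not pass the test. Under total-count scaling 23 rose and 0 fell (median 0.41), set beside 12.9% raised and 26.6% lowered.

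**Figure D5:**
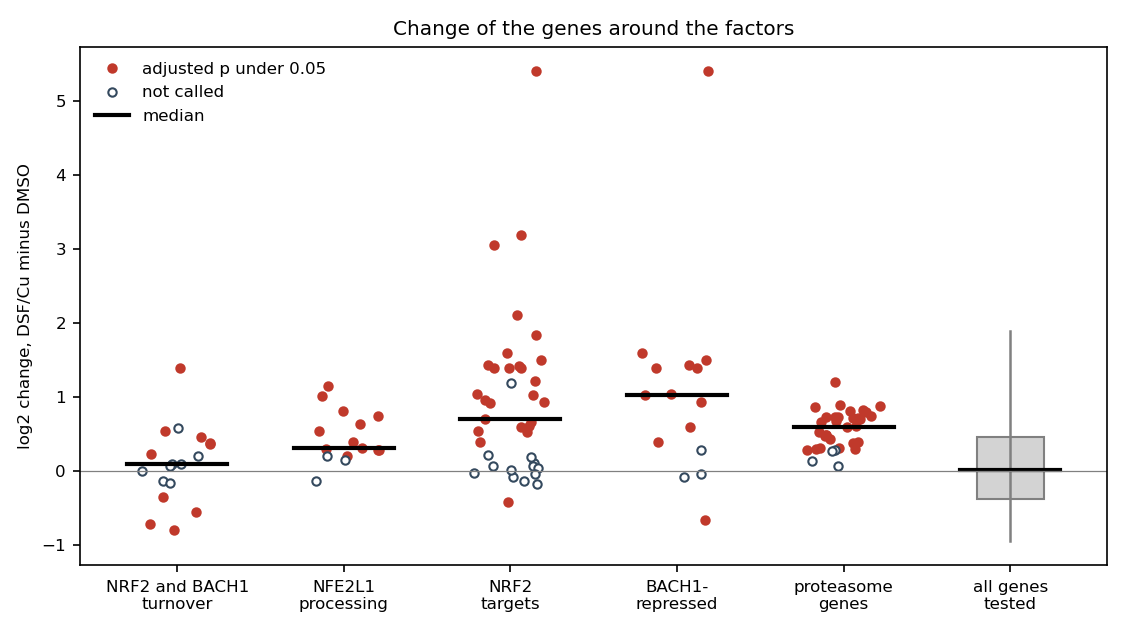
Log2 change, DSF/Cu minus DMSO (y axis), of each tested gene in 5 lists, filled where called, with the list's median as a bar, beside the median, quartiles (box) and 5th to 95th percentiles (line) of all 18229 genes. The list medians run from 0.09 for turnover of NRF2 and BACH1 to 1.02 for BACH1-repressed genes.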

How the data were processed

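The authors deposited unscaled whole-number counts and, beside them, FPKM values, as the file headers name them. The submitters' processing notes name HISAT2 2.0, StringTie 1.3.0 and Bowtie 0.12.2 without saying what each was used for. The counter and its strand setting are not given in these sources. A mouse build, mm8, is listed, but 58552 of the 58825 gene IDs are human IDs of GENCODE 29 and 47556 have its start and end, so coordinates are given as GRCh38. The table's Control columns were read as DMSO, since no other sample group lacked DSF/Cu.

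Genes were kept by filterByExpr (18229 genes), scaled by TMM and tested over all 6 libraries with edgeR 4.0.16 (quasi-likelihood F test, two-sided; R 4.3.3) with Benjamini-Hochberg adjustment over all genes and a threshold of 0.05. Standard errors are the absolute log2 change over the square root of F, and 95% intervals use its t quantile. Between-gene levels, ratios and shares use FPKM. Pairs of libraries within a group differed by 51.3 to 65.1 times the sampling noise (chi-square per degree of freedom), so none is a copy. Alternatives were total-count and RLE scaling, DESeq2 1.42.0, no count filter, limma 3.58.1 on log2(FPKM + 1) and log2(FPKM + 0.1), a replicate block and leaving out each library.

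The 10 members and all lists were chosen with earlier results of these data known. Named genes are the members, the other family genes, and up to 4 rises and 3 falls of each list by adjusted p with at least 1 FPKM on average in the higher group; some genes this rule names are not reported here. Protein sequences were not used here, and no promoter window of *MAFK* was used.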

Additional observations from a re-analysis of the deposited data

How the results depend on the processing

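The rises of *NFE2L2*, *BACH1*, *MAFF* and *MAFG* and the fall of *NFE2L3* kept their direction and call under all 13 alternatives. *NFE2L1* was also called under total-count scaling (-0.614) and without DMSO replicate 3 (-0.63), so that 2 members were lowered there and 1 to 2 when each library was left out. Small changes that were not called turned sign. When each library was left out, the log2 change ran from -0.141 to 0.018 for *KEAP1*, from -0.012 to 0.105 for *DDI2* and from -0.008 to 0.081 for *NGLY1*; *KEAP1* lay at 0.01 without DMSO replicate 1. *DDI2* lay at -0.13 under total-count scaling, and at -0.082 and -0.11 in limma with pseudocounts of 1 and 0.1. *NGLY1* lay at -0.145, -0.107 and -0.126 under the same settings.

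Total-count scaling, limma with a pseudocount of 1 and limma with 0.1 lowered 4856, 4791 and 4727 of all genes against 3059. They raised 2356, 2485 and 2544 of all genes against 3365. In each of the 3, 2 genes of NRF2 and BACH1 turnover rose (6 with TMM), 6 of NFE2L1 processing rose (12), 4 NRF2 targets fell (1) and 2 BACH1-repressed genes fell (1). The turnover list's median was -0.092, -0.067 and -0.074. DESeq2 lowered 2 NRF2 targets, and 3952 of all genes. Leaving out each library lowered 2 to 3 turnover genes and 0 to 1 BACH1-repressed genes, and 2284 to 2550 of all genes.

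In the same leave-one-out runs, the log2 difference ran from -0.515 to 0.608 for *MAFK* over *MAFG*, -0.705 to -0.295 for *NFE2L3* over *NFE2L1*, -0.099 to 0.009 for *NFE2L2* over *BACH1* and -0.055 to 0.113 for *DDI2* over *NGLY1*. The difference in share of the small MAF sum ran from -1.67 to 3.13 percentage points for *MAFF*, -4.47 to 2.42 for *MAFG* and -5.55 to 6.12 for *MAFK*. The difference in the *BACH1* share was 4.17 points with counts in place of FPKM, against 3.25.

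Same-numbered libraries showed little shared variation: their deviations from the group means correlated at 0.021, -0.008 and 0.044. These values cannot show whether same-numbered libraries were prepared together. With the replicate block, 2692 genes were raised and 2451 lowered, the members' calls stood, and 2 turnover genes fell in place of 4. Where not stated above, the cause of a difference was not tested. The lowest count of a member in any library was 1010, of *MAFK*.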
